A study of Mus musculus with 4 samples.

Results

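Glucocorticoid response genes were followed here in lumbar spinal cord of wild type (WT) and G93A mice given spermidine (SD) or vehicle. They are 8 genes chosen by name: the glucocorticoid receptor gene Nr3c1 and 7 genes known to respond to glucocorticoids, Fkbp5, Tsc22d3, Klf9, Zbtb16, Sgk1, Pdk4 and Sult1a1. All 8 were listed in the table of the series, in 14 of its 23750 rows and as 8 of its 18674 gene names, and all 8 had a mean level of at least 1 RPKM. Where a name had several rows, here Sgk1 with 6 and Tsc22d3 with 2, the mean of the rows was used.

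The 4 conditions were sequenced with 1 library each, WT mice and G93A mice with either vehicle (WT vehicle, G93A vehicle) or SD (WT + SD, G93A + SD). G93A mice carry a human SOD1 transgene with the amyotrophic lateral sclerosis mutation of that name and serve as a model of the disease, and WT mice lack it. According to the methods, the G93A mice were of the H1 high-expresser strain bred on a B6/SJLF1 background, only males were used for treatment, and animals were 100 days old when the cord was taken, following treatment with SD, a natural polyamine, or with PBS for 30 days. The labels write the treatment of the vehicle mice as none, and neither the labels nor the methods name the number of animals behind a library or the time of day at which the tissue was taken. A single library stood for each condition, so differences between conditions had no replicates to be checked against. No test was run, neither between conditions nor across the 4 libraries, and no p-value is given.

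Levels are RPKM, in which read numbers are divided by transcript length and by library size, so levels of different genes can be set side by side. The libraries were close in depth, with an estimated 36800000 and 38300000 read pairs for WT with vehicle and with SD, and 38000000 and 38600000 for G93A. This estimate, from the step of low values, does not show whether its unit is a read or a read pair. The name read pairs is used for it throughout. A gene is called higher or lower where its levels in 2 libraries differed at least 1.5-fold, and a log2 difference is that of RPKM + 0.1. The cord was measured as bulk tissue, in which fewer cells of a type and less RNA per cell cannot be told apart. Neurons, oligodendrocytes and astrocytes were all represented by their markers in each library.

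Glucocorticoids, corticosterone in the mouse, are steroid hormones of the adrenal cortex released under stress and in a daily rhythm. They bind the receptor encoded by Nr3c1, which is held by chaperones in the cytoplasm, moves to the nucleus with its ligand and binds DNA at glucocorticoid response elements, where it raises transcription of many genes, while it lowers many inflammatory genes. In the nervous system, neurons, astrocytes, oligodendrocytes, microglia and endothelial cells all carry the receptor, and Fkbp5, Tsc22d3, Sgk1 and Zbtb16 are among the genes often read as signs of hormone exposure.

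The glucocorticoid response element is classically a pair of inverted 6-letter arms separated by 3 bases. The window from 250 bases before to 50 bases after each annotated transcript start was searched on both strands for the whole element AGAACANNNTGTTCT, for its looser core GNACANNNTGTNC and for a single arm TGTTCT, which reads as AGAACA on the other strand. The whole element contains the other motifs. RefSeq windows of GRCm38.p6 were given for 6 of the 8 genes, 13 windows in all, and not for Nr3c1 and Zbtb16. The whole element lay in 1 of these 13 windows, that of an Sgk1 transcript, and in 3 of all 32851 windows (0.00913%). The core lay in the same 1 of 13 windows and in 156 of all windows (0.475%). A single arm lay in 5 of 13 windows, belonging to Sgk1, Sult1a1 and Tsc22d3, and in 6233 of all windows (19.0%). A window is shown for each of the 3 genes with a match, with the whole element and the arms in capitals, since these genes include the one with the widest range of levels, Sgk1, and the one with lower levels in both G93A libraries than in both WT libraries, Tsc22d3. The Sgk1 window is chr10:21993640-21993939 on the plus strand, and its whole element begins at position -189, counted from the transcript start at 21993890, with a further arm at position -242. The Sult1a1 window is chr7:126676369-126676668 on the minus strand, with arms that begin at positions -212 and -34. The Tsc22d3 window is chrX:140600473-140600772 on the minus strand, at the start of its longer-reaching transcript, with an arm that begins at position -185.
Sgk1: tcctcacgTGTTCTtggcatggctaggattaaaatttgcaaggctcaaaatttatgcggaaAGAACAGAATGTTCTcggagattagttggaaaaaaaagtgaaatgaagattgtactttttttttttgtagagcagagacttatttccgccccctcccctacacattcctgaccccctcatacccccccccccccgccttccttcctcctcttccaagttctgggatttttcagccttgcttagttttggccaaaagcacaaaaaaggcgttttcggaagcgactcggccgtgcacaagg
Sult1a1: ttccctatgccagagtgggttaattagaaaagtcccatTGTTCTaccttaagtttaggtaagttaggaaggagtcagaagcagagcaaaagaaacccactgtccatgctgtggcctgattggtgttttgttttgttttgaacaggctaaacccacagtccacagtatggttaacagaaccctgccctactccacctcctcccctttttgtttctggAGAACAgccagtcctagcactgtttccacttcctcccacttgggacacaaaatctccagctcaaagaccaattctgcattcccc
Tsc22d3: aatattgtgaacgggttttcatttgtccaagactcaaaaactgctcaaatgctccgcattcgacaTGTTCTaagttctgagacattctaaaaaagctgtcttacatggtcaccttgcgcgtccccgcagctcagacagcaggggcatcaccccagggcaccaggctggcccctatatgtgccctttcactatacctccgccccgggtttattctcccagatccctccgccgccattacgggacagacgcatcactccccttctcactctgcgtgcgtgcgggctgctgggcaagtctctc
A match says only that these letters are present, and the binding of the receptor was not measured.

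Across the 8 genes the levels did not move as a block. Under vehicle, G93A was at least 1.5-fold above WT for 4 of the 8 (Sgk1, Sult1a1, Pdk4 and Zbtb16) and below it for 0. Over all gene names, 20.3% were higher and 10.3% lower in this comparison, and over names with a mean of at least 1 RPKM 13.5% were higher and 4.68% lower. With SD in both genotypes, 3 of the 8 were higher in G93A (Sgk1, Sult1a1 and Pdk4) and 0 were lower, beside 23.2% higher and 12.5% lower over all names and 16.3% and 8.12% over names with a mean of at least 1 RPKM. These comparisons of genotypes share no library. The median log2 difference of the 8 genes was 0.31 in the vehicle pair and 0.31 in the SD pair, against 0.05 and 0.05 over all names.

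Both G93A libraries lay above both WT libraries for 4 of the 8 genes (Fkbp5, Sgk1, Pdk4 and Sult1a1), below them for 1 (Tsc22d3) and neither for 3 (Zbtb16, Nr3c1 and Klf9). Among all names, 39.7% lay above and 28.0% below in this way, and among names with a mean of at least 1 RPKM 43.7% lay above and 32.6% below. The counts of 4 and 1 of 8 thus lie near the background of the table. Under median-ratio scaling, 3 of the 8 lay above (Sgk1, Pdk4 and Sult1a1) and 2 below (Tsc22d3 and Klf9), beside 36.5% and 39.6% of names whose mean was at least 1 RPKM.

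Fewer genes differed with SD than with genotype. In WT, 1 of the 8 was higher with SD (Zbtb16) and 1 was lower (Sgk1), where 7.18% of all names were higher and 8.55% lower. Among names whose mean was at least 1 RPKM those shares were 0.909% higher and 1.36% lower. In G93A, 1 of the 8 was higher with SD (Zbtb16) and 0 were lower, beside 8.71% higher and 7.31% lower over all names, and 1.34% and 1.04% over names whose mean was at least 1 RPKM. The median log2 difference of the 8 genes was 0.0047 with SD in WT and 0.23 with SD in G93A, against 0.0044 and 0.0068 over all names. Each SD comparison shares a library with each comparison of genotypes.

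**Figure D1:**
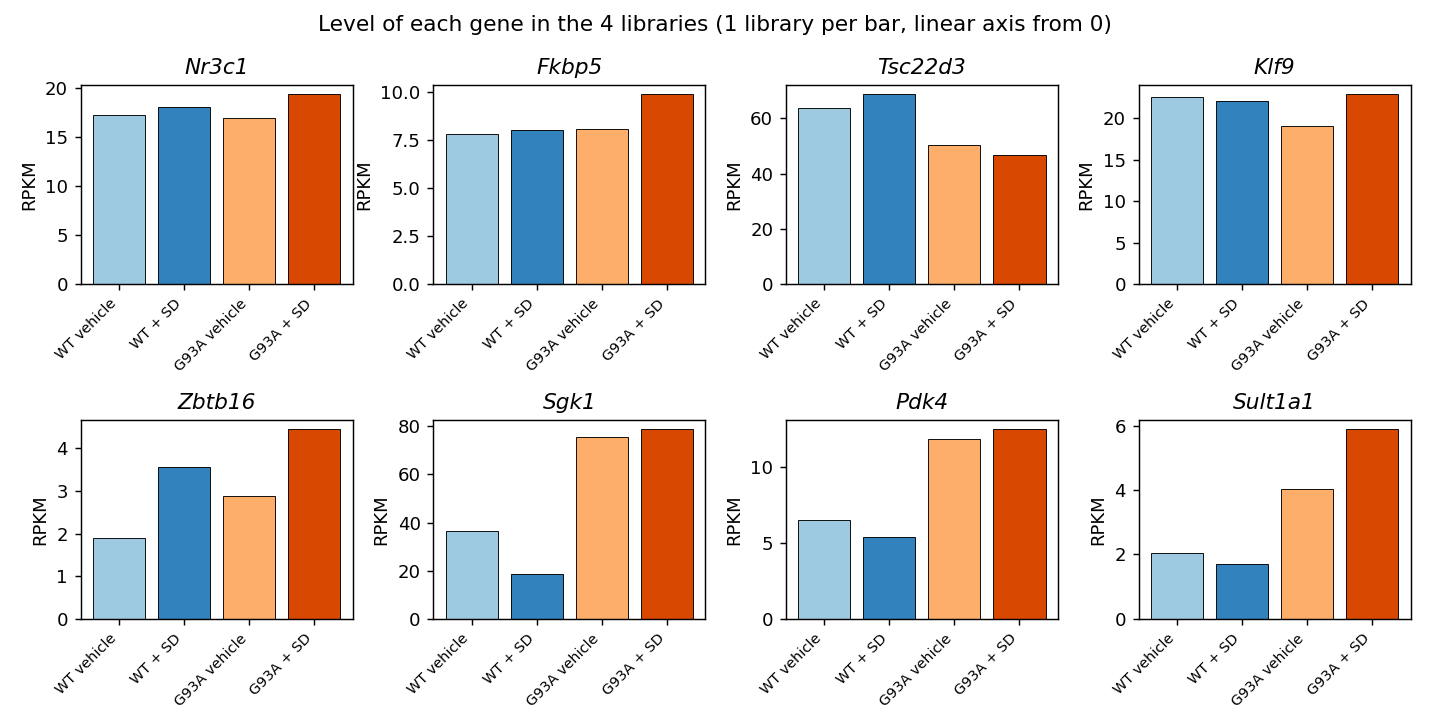
Level of each of the 8 genes in RPKM in the 4 libraries, 1 bar per library and 1 panel per gene, each with its own axis from 0. Sgk1, Pdk4 and Sult1a1 lie higher in both G93A libraries, Tsc22d3 lies lower in both, and Zbtb16 is lowest in WT vehicle at 1.90 RPKM and highest in G93A + SD at 4.45 RPKM.

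**Figure D2:**
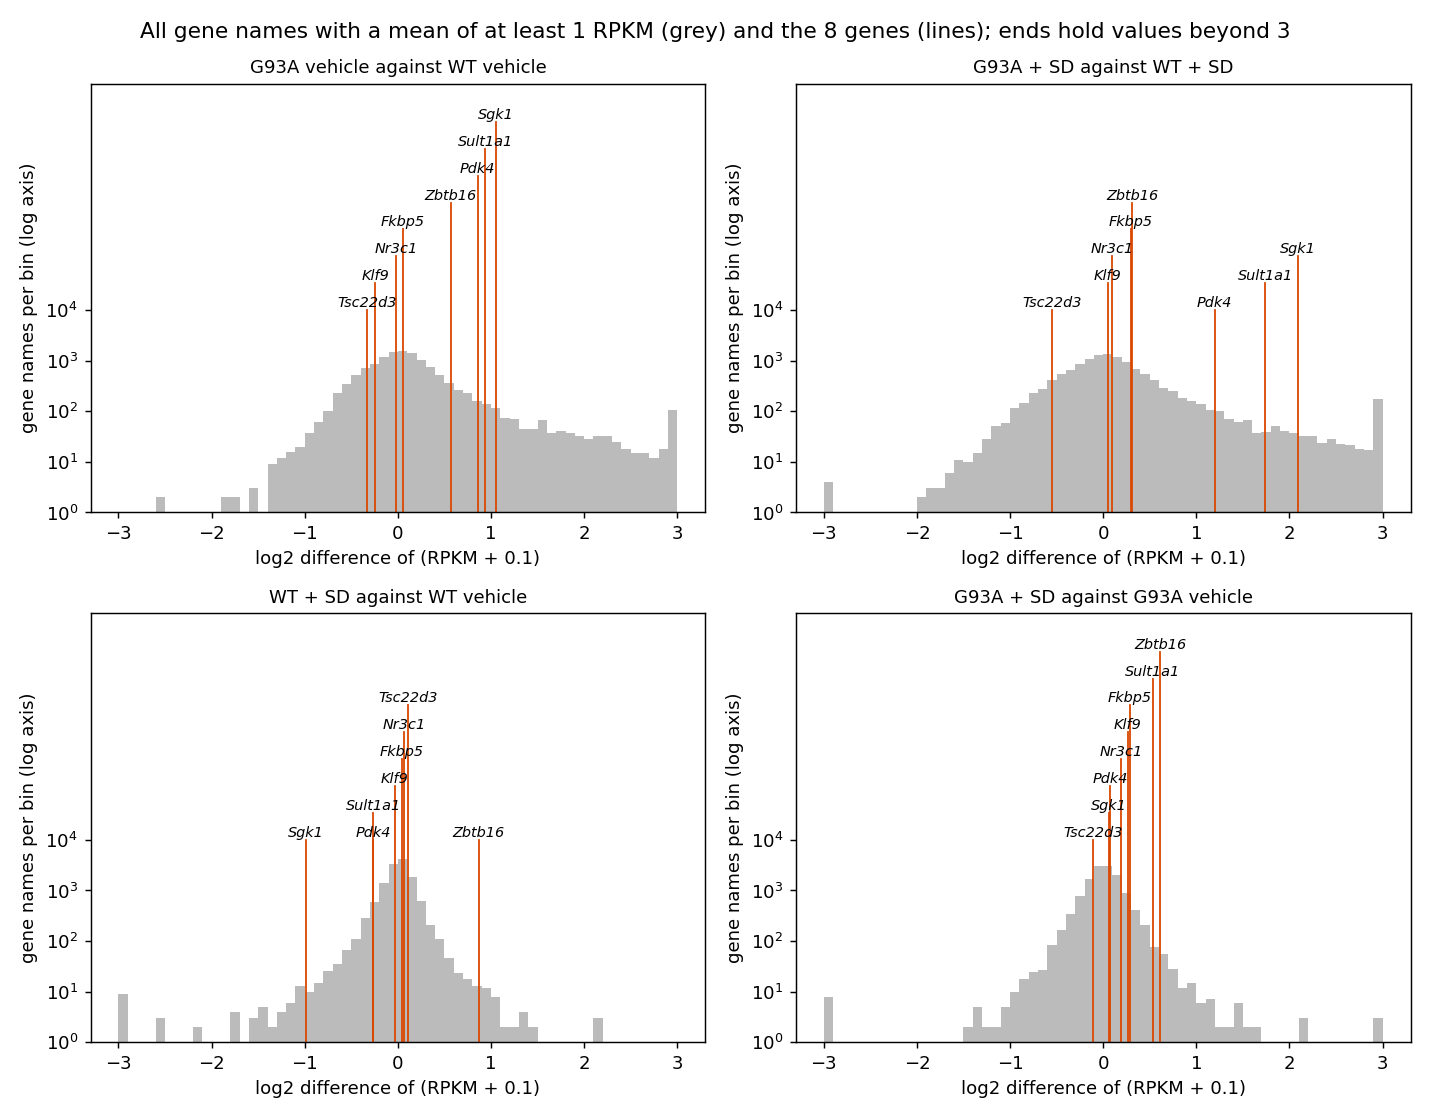
Histograms of the log2 difference of all 12987 gene names with a mean of at least 1 RPKM in each of the 4 comparisons, with a line for each of the 8 genes (x axis: log2 difference of RPKM + 0.1; y axis: gene names per bin of 0.1, log axis). With SD in WT, Sgk1 at -0.98 and Zbtb16 at 0.87 lie in the sparse ends, and Pdk4 lies at -0.27 and Sult1a1 at -0.26. By the ratio of levels with no pseudocount, Pdk4 and Sult1a1 are among the lowest 5.96% and 5.81% of names.

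Nr3c1, the receptor gene itself, was at 17.2 RPKM with vehicle and 18.1 with SD in WT, and 16.9 and 19.3 in G93A. It had the narrowest range of the 8 genes, with the highest library 1.14-fold above the lowest, and the genotypes overlapped. Its log2 difference between G93A and WT was -0.02 under vehicle and 0.10 under SD. The receptor protein and its place in the cell were not measured, and RNA level alone does not give the hormone response.

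The chaperones that hold the receptor and the coregulators that work with it on DNA mostly stayed within 1.5-fold. Most names with a mean of at least 1 RPKM did so too. Of the 19 chaperones and coregulators, 0 were higher and 0 lower in G93A under vehicle, beside 13.5% and 4.68% of those names. With SD in both genotypes 1 was higher and 1 lower, beside 16.3% and 8.12%. With SD in WT, 0 were higher and 1 was lower, beside 0.909% and 1.36%. With SD in G93A 0 were higher and 0 lower, beside 1.34% and 1.04%. Hspa8, a constitutive Hsp70 chaperone that loads client proteins, was at 107 RPKM with vehicle and 50.1 with SD in WT, and 85.2 and 81.0 in G93A. The WT + SD library alone stood low for Hspa8, 2.14-fold below WT vehicle, and reads of its processed pseudogenes may be split from it in ways the sources do not state. Stip1, which bridges Hsp70 and Hsp90, was at 99.0, 104, 87.3 and 68.4 RPKM in the same order, 1.52-fold lower in G93A + SD than in WT + SD.

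Genes that make, convert, bind or export the hormone differed between the genotypes in both directions. Of 12 such genes 11 were in the table, and Mc2r, the adrenal receptor for corticotropin, was listed at 0 in at least 1 library. In G93A vehicle against WT vehicle 3 were higher and 3 lower, and in G93A + SD against WT + SD 2 were higher and 2 lower. With SD in WT, 1 was higher and 1 lower, and with SD in G93A 2 were higher and 0 lower. All calls with SD were of Hsd11b2, Mc2r and Akr1c14, whose means were under 1 RPKM. Among the 7 with a mean of at least 1 RPKM, 2 were higher and 1 lower in G93A under vehicle, beside 13.5% and 4.68% of all names at that level. Of the same 7, 1 was higher and 1 lower in G93A under SD, beside 16.3% and 8.12%, and 0 differed with SD in either genotype. Under median-ratio scaling Crhr1, the receptor for corticotropin-releasing hormone, was a further lower gene in both pairs. Hsd11b1, the enzyme that regenerates active corticosterone from its inert form, was at 16.7 RPKM with vehicle and 13.1 with SD in WT, and 7.63 and 6.58 in G93A. Both G93A libraries were low, 2.19-fold below WT under vehicle and 1.99-fold below WT under SD. Abcb1b, an efflux pump that exports corticosteroids, ran the other way, at 0.854, 0.817, 2.17 and 2.56 RPKM in the same order, and Srd5a1, the 5-alpha-reductase that inactivates steroids, was at 4.80, 5.74, 7.99 and 7.79 RPKM.

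Fkbp5, a co-chaperone that lowers the affinity of the receptor for its hormone and closes a short feedback loop, was at 7.82 RPKM with vehicle and 8.04 with SD in WT, and 8.11 and 9.90 in G93A. The first 3 of these libraries lay within 1.04-fold of each other and G93A + SD stood above them, 1.22-fold above G93A vehicle and 1.23-fold above WT + SD. No comparison of Fkbp5 reached 1.5-fold. The separation of the genotypes was slight, since the lower G93A library was only 1.01-fold above the higher WT library, and under median-ratio scaling the vehicle pair came to a log2 difference of -0.01 and the genotypes overlapped. Fkbp5 lies at chr17:28399094-28517527 on the minus strand, and an estimated 1018 to 1354 read pairs per library stand behind its level.

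Tsc22d3, which encodes GILZ, a leucine zipper protein that carries part of the anti-inflammatory action of glucocorticoids, was the most abundant of the 8 genes in the WT libraries, while Sgk1 was the most abundant in the G93A libraries. Tsc22d3 was at 63.7 RPKM with vehicle and 68.7 with SD in WT, and 50.5 and 46.9 in G93A. Both G93A libraries were low and the genotypes did not overlap, with log2 differences of -0.33 under vehicle and -0.55 under SD. G93A was 1.26-fold below WT under vehicle and 1.47-fold below WT under SD, short of 1.5-fold in each. Under median-ratio scaling the SD pair came to -0.62, past 1.5-fold. Among the 12987 names with a mean of at least 1 RPKM, 14.4% had a difference as low or lower in the vehicle pair and 9.28% in the SD pair. Its 2 listed transcripts, of 1974 and 1552 bases, gave nearly the same ratios, 0.794 and 0.792 under vehicle. Tsc22d3 lies at chrX:140539528-140600659 on the minus strand.

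Klf9, a Krüppel-like transcription factor induced by glucocorticoids and thyroid hormone, was at 22.6 RPKM with vehicle and 22.1 with SD in WT, and 19.1 and 22.9 in G93A. Only the G93A vehicle library stood low, 1.18-fold below WT vehicle, and the genotypes overlapped. With SD, the ratio of G93A to WT was 1.03, a log2 difference of 0.05 that came to -0.02 under median-ratio scaling, where both G93A libraries lay below both WT libraries. Klf9 lies at chr19:23141226-23168134 on the plus strand.

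Zbtb16, the zinc finger transcription factor PLZF, strongly induced by glucocorticoids in many tissues, was the only one of the 8 genes past 1.5-fold in both SD comparisons. It was at 1.90 RPKM with vehicle and 3.56 with SD in WT, and 2.87 and 4.45 in G93A. Both SD libraries stood above both vehicle libraries. This also held for Nr3c1, with a range of only 1.14-fold, and how many names did so was not counted. The level of Zbtb16 with SD was 1.87-fold that of vehicle in WT, a difference that 50 of 12987 names (0.385%) matched or passed. In G93A it was 1.55-fold that of vehicle, matched or passed by 140 names (1.08%). G93A vehicle was 1.51-fold above WT vehicle, just past the threshold, though its log2 difference with the pseudocount, 0.57, lies under the 1.5-fold line of the plot of differences, and G93A + SD was 1.25-fold above WT + SD. Zbtb16 is scarce in this tissue, with an estimated 358, 697, 558 and 878 read pairs in the order of the levels. With a pseudocount of 1 its log2 difference was 0.42 in the vehicle pair and 0.49 with SD in G93A, both under 1.5-fold. Zbtb16 lies at chr9:48654297-48836222 on the minus strand.

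Sgk1, a serine and threonine kinase that regulates ion channels and transporters and is induced by glucocorticoids and by cell stress, had the widest range of the 8 genes. It was at 36.5 RPKM with vehicle and 18.4 with SD in WT, and 75.7 and 78.8 in G93A. WT + SD was low, WT vehicle lay between, and the G93A libraries were high and close to each other. G93A was 2.07-fold above WT under vehicle and 4.28-fold above WT under SD, log2 differences of 1.05 and 2.09. Differences as high or higher were seen for 6.50% of the 12987 names in the vehicle pair and for 3.13% in the SD pair. With SD the level was 1.98-fold lower in WT, a difference that 67 of 12987 names (0.516%) matched or passed, and 1.04-fold higher in G93A. The larger ratio under SD thus came with the low WT + SD library, and the G93A level under SD was nearly that under vehicle.

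The 6 rows of Sgk1 are transcripts with different starts and a shared body, and their values multiplied by length differed by at most 1.09-fold, so the rows share their reads and do not count as separate measurements. Their ratios ran from 2.05 to 2.08 under vehicle and from 4.13 to 4.32 under SD. Whether the transcript whose window holds the whole response element differed from the others cannot be read from these values. The annotated gene spans chr10:21882184-21999903 on the plus strand, and an estimated 1849 to 7966 read pairs per library stand behind its level.

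Pdk4, the mitochondrial kinase that turns off pyruvate dehydrogenase and shifts fuel use from glucose to fat in fasting and under glucocorticoids, was at 6.49 RPKM with vehicle and 5.37 with SD in WT, and 11.8 and 12.5 in G93A. Both G93A libraries were high, 1.82-fold above WT under vehicle and 2.32-fold under SD. SD went with a 1.21-fold lower level in WT and a 1.05-fold higher level in G93A. Pdk4 lies at chr6:5483351-5496309 on the minus strand.

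Sult1a1, a phenol sulfotransferase that conjugates catecholamines, hormones and drugs, was at 2.06 RPKM with vehicle and 1.70 with SD in WT, and 4.04 and 5.90 in G93A. Both G93A libraries were high, 1.96-fold above WT under vehicle and 3.48-fold under SD. The level with SD was 1.21-fold lower in WT and 1.46-fold higher in G93A, and the G93A difference was matched or passed by 199 of 12987 names (1.53%). Sult1a1 rests on the fewest reads of the 8 genes, an estimated 104, 89, 210 and 312 read pairs in the order of the levels. It lies at chr7:126672865-126676432 on the minus strand and overlaps Sgf29 on the other strand, and since no source says whether counting was strand-specific, reads of these genes may not be told apart. Of its 1318 windows of 53 bases, 100 (7.59%) also occur in Sgf29 or Gm6939, while the other genes shared at most 1.25%.

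**Figure D3:**
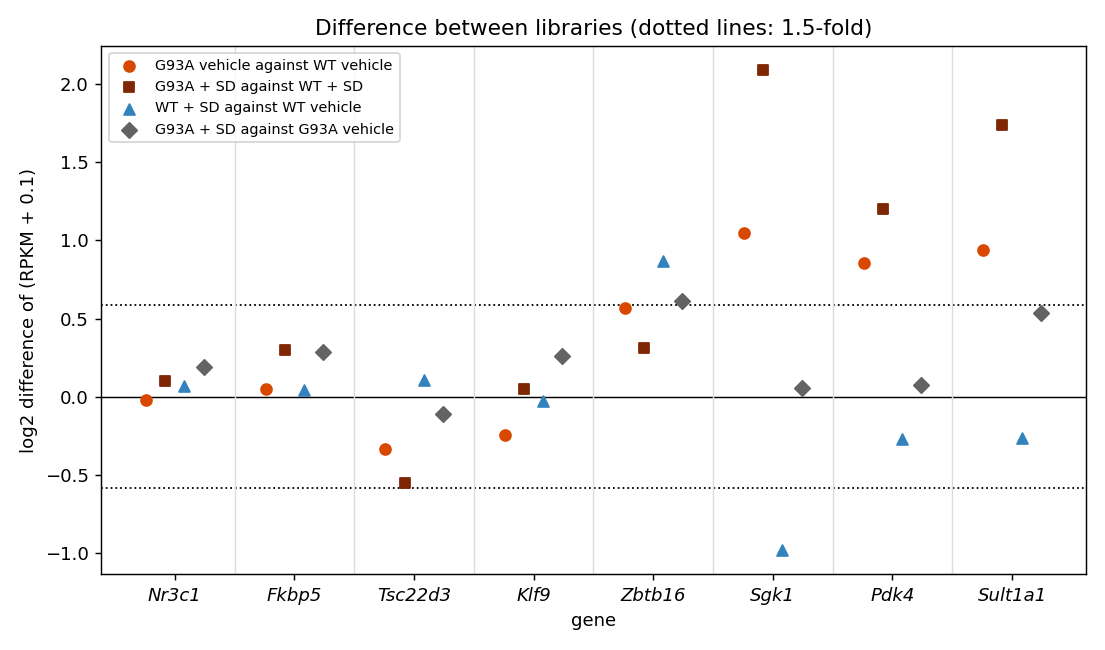
Log2 difference of RPKM + 0.1 of each of the 8 genes in the 4 comparisons, 1 point per comparison, with dotted lines at 1.5-fold. Sgk1, Sult1a1 and Pdk4 lie above the upper line in both comparisons of genotypes, and Zbtb16 lies above it in both SD comparisons, at 0.87 in WT and 0.61 in G93A.

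Genes related to these enzymes were counted beside them. Of 19 sulfotransferases, pyruvate dehydrogenase kinases and phosphatases and related genes, a list that includes Sult1a1, Pdk4 and Zbtb16, 16 were in the table. Under vehicle 5 were higher and 1 lower in G93A, and with SD in both genotypes 3 were higher and 3 lower. With SD in WT 1 was higher and 0 lower, beside 7.18% and 8.55% of all names. With SD in G93A 2 were higher and 3 lower, beside 8.71% and 7.31%. The higher calls were Sult1a1, Pdk4 and Zbtb16 themselves and Sult1b1, Sult1c2 and Sult5a1, whose means were under 1 RPKM. Among the 10 others with a mean of at least 1 RPKM, 0 were higher and 1 lower in G93A under vehicle, and 0 were higher and 3 lower under SD. Of all names at that level, 13.5% were higher and 4.68% lower under vehicle, and 16.3% and 8.12% under SD, so few calls are to be had among 10 genes. Sult2b1, which sulfates cholesterol, was at 1.48 RPKM with vehicle and 1.60 with SD in WT, and 0.755 and 0.367 in G93A. Sult4a1, the brain sulfotransferase found mainly in neurons, was at 139, 133, 97.5 and 77.8 RPKM in the same order. Pdk3, another kinase of pyruvate dehydrogenase, was at 17.6, 18.8, 13.5 and 11.9 RPKM. All 3 had lower levels in both G93A libraries than in both WT libraries, and Sult4a1 and Pdk3 passed 1.5-fold in the SD pair alone.

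Other genes induced by glucocorticoids were higher in G93A or within 1.5-fold in both comparisons of genotypes. Of 30 such genes, 17 were higher and 0 lower in G93A under vehicle, and 18 were higher and 0 lower in G93A under SD, where 13.5% and 16.3% of names with a mean of at least 1 RPKM were higher. With SD in WT 0 were higher and 2 lower, beside 0.909% and 1.36% of those names. With SD in G93A 2 were higher and 0 lower, beside 1.34% and 1.04%. Both G93A libraries lay above both WT libraries for 25 of the 30 and below them for 4, or for 23 and 4 under median-ratio scaling. Among names whose mean was at least 1 RPKM, 43.7% lay above and 32.6% below as deposited, and 36.5% and 39.6% under that scaling. Whether the list differed from the 8 genes was not tested. The median log2 difference of the list was 0.66 under vehicle and 0.91 under SD between genotypes, and -0.06 and 0.12 for SD in WT and in G93A. Many of these genes are also induced by cytokines or hypoxia, so the list is not particular to the hormone.

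Cebpd, a transcription factor of the acute phase response, was at 0.608 RPKM with vehicle and 0.518 with SD in WT, and 8.35 and 10.1 in G93A. Angptl4, a secreted inhibitor of lipoprotein lipase, was at 0.461, 0.248, 2.83 and 3.04 RPKM in the same order. The metal-binding metallothioneins were abundant, with Mt1 at 227, 191, 1050 and 1155 RPKM and Mt2 at 149, 140, 900 and 978 RPKM. Both G93A libraries were far above both WT libraries for these 4 genes. Lcn2, an iron-siderophore carrier released by reactive astrocytes, was at 2.10, 0.728, 5.27 and 4.67 RPKM, and its WT + SD library stood 2.89-fold below WT vehicle. Plin4, a lipid droplet coat protein, was at 1.15, 1.35, 4.95 and 7.62 RPKM.

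**Figure D4:**
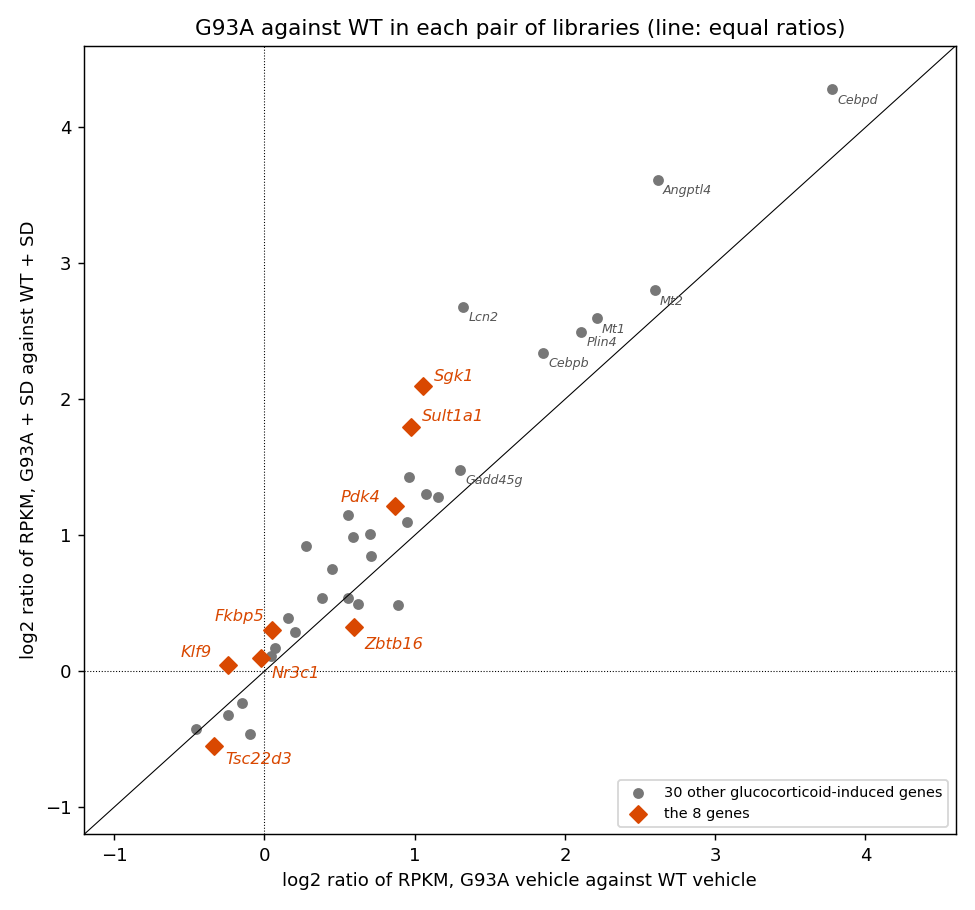
Log2 ratio of RPKM of G93A to WT in the vehicle pair (x axis) and in the SD pair (y axis) for the 8 genes (diamonds) and the 30 other glucocorticoid-induced genes (circles), with a line of equal ratios. Sgk1, Sult1a1 and Pdk4 lie with the circles at the upper right, Fkbp5, Nr3c1 and Klf9 lie near 0 on both axes, and Tsc22d3 lies at the lower left.

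The core of the element also lay in windows of 2 of the 26 list genes with a window, Mt1 and Fam107a, against 145 of all 27025 genes (0.537%). The whole element lay in windows of 0 of the 26, against 3 of all genes (0.0111%). A single arm lay in windows of 3 of the 26, against 5750 of all genes (21.3%). Mt1 and Fam107a are shown with the core in capitals and 30 bases on each side. The Mt1 stretch is chr8:94178965-94179037 on the plus strand of GRCm38.p6, from RefSeq, and the core begins at position -94. The Fam107a stretch is chr14:8309855-8309927 on the minus strand, and the core begins at position -118.
Mt1: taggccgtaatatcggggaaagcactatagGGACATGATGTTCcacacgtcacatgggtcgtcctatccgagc
Fam107a: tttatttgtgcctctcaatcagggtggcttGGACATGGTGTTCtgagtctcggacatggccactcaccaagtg

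Genes that glucocorticoids lower were mostly higher in G93A. Of 12 inflammatory genes of this kind, 10 were higher and 1 lower in G93A under vehicle, and 11 were higher and 1 lower in G93A under SD, beside the 20.3% and 10.3% of all names under vehicle and the 23.2% and 12.5% under SD. With SD in WT 1 was higher and 4 lower, beside 7.18% and 8.55% of all names. With SD in G93A 1 was higher and 2 lower, beside 8.71% and 7.31%. Among the 7 with a mean of at least 1 RPKM, 6 were higher and 1 lower in G93A in each pair. The shares of names at that level were 13.5% and 4.68% under vehicle and 16.3% and 8.12% under SD. Of the same 7, 0 were higher and 2 lower with SD in WT, beside 0.909% and 1.36% of names at that level. With SD in G93A 1 of the 7 was higher and 1 lower, beside 1.34% and 1.04%. The chemokine Ccl3 was at 0.253 RPKM with vehicle and 0.237 with SD in WT, and 11.8 and 10.5 in G93A. Ccl4 was at 0.186, 0.197, 8.11 and 7.56 RPKM in the same order, and Ccl2, which draws monocytes, was at 0.233, 0.0973, 2.36 and 2.69 RPKM. Icam1, an adhesion molecule, was at 0.915, 0.933, 7.20 and 6.12 RPKM, and the interferon-induced Cxcl10 was at 0.626, 0.330, 2.97 and 5.11 RPKM. Mmp9, a gelatinase, was the gene that ran the other way, at 2.61, 2.26, 1.30 and 0.667 RPKM.

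Cell type markers moved with genotype beside these genes. Summed levels of 10 microglial markers were 149 RPKM with vehicle and 140 with SD in WT, and 763 and 794 in G93A, and 9 of the 10 were higher in G93A in each pair. For 8 astrocyte markers the sums were 1485, 1426, 3857 and 4620 RPKM in the same order, with 5 of 8 higher under vehicle and 6 of 8 under SD. Of names with a mean of at least 1 RPKM, 13.5% were higher under vehicle and 16.3% under SD. Under median-ratio scaling 8 microglial and 4 astrocyte markers were higher in the vehicle pair, beside 12.1% of those names. For 8 oligodendrocyte markers the sums were 9038, 9317, 7530 and 6943 RPKM. For 7 motor neuron markers they were 406, 384, 220 and 143 RPKM, of which Nefh made 327 RPKM in WT vehicle. Of these 7, 4 were lower under vehicle and 5 under SD, and 0 were higher. For 7 markers of other neurons the sums were 1544, 1570, 964 and 840 RPKM, of which Snap25 made 1268 RPKM in WT vehicle. Of these, 3 were lower under vehicle and 4 under SD, and 0 were higher. Over all names 10.3% were lower under vehicle and 12.5% under SD. For 8 endothelial markers the sums were 83.4, 78.8, 75.3 and 64.2 RPKM. For 5 meningeal markers they were 10.4, 11.5, 13.3 and 18.2 RPKM, and for 3 ependymal markers 8.98, 11.1, 14.7 and 11.2 RPKM. None of these markers was at 0 in any library. The part of cell composition in the levels of Sgk1, Pdk4, Sult1a1 and Tsc22d3 was not tested.

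Markers of blood in the tissue were lowest in WT vehicle. The sum of 3 red blood cell markers was 17.8 RPKM with vehicle and 35.7 with SD in WT, and 26.5 and 28.8 in G93A. With SD in WT 3 of 3 were higher, beside 0.909% of names with a mean of at least 1 RPKM. In G93A vehicle against WT vehicle 2 of 3 were higher, beside 13.5% of those names, or 0 under median-ratio scaling. Sgk1 was lower and Zbtb16 higher with SD in WT, and both were higher in the vehicle pair. The part of residual blood in either gene was not tested.

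The hour of dissection also bears on hormone exposure, and clock genes were read for it. Of 17 clock genes 16 were in the table, and 0 were higher and 0 lower with SD in either genotype. Of names with a mean of at least 1 RPKM, 0.909% were higher and 1.36% lower with SD in WT. With SD in G93A those shares were 1.34% and 1.04%. Between genotypes 4 were higher and 0 lower in G93A in each pair, or 2 in the vehicle pair under median-ratio scaling, and 13.5% and 16.3% of names with a mean of at least 1 RPKM were higher in these pairs. Both G93A libraries lay above both WT libraries for 6 of the 16 and below them for 6, the latter being Per3, Hlf, Tef, Nr1d2, Arntl and Cry2. Among names with a mean of at least 1 RPKM, 43.7% lay above and 32.6% below, so these counts lie near the background of the table. Per1, a clock gene that is also a direct glucocorticoid target and counts under both lists, was at 6.56 RPKM with vehicle and 5.65 with SD in WT, and 9.85 and 11.2 in G93A. The transcriptional repressors Nfil3, at 3.38, 3.52, 5.99 and 6.90 RPKM, and Bhlhe40, at 22.5, 22.3, 36.4 and 39.99 RPKM, had the same order of genotypes. Npas2, the partner of Bmal1 in the forebrain clock, was at 1.40, 1.38, 2.16 and 2.40 RPKM.

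The 8 genes fell apart when their profiles over the 4 libraries were compared by the Euclidean distance between centred log2 levels, where 0 means the same profile. Fkbp5 and Nr3c1 were closest at 0.15, followed by Nr3c1 and Klf9 at 0.16, and these are the genes that varied least. Pdk4 and Sult1a1 were 0.45 apart and Sgk1 and Sult1a1 0.65 apart. Sgk1 and Tsc22d3 were farthest at 2.16. These distances describe 4 libraries only.

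The likeness of profiles was ranked over 2198 names whose mean was at least 5 RPKM and whose highest library was at least 1.5-fold above the lowest. The profiles nearest to that of Fkbp5 were Cyp2j6, Fam126a, Alkbh3, D230037D09Rik and Sft2d1, at distances of 0.21, 0.21, 0.21, 0.22 and 0.23. Each had its highest level in G93A + SD. Cyp2j6, a cytochrome P450, was at 12.8 RPKM with vehicle and 12.2 with SD in WT, and 13.8 and 18.4 in G93A, and Fam126a, a gene needed for myelin, was at 4.12, 4.90, 5.07 and 6.34 RPKM. Fkbp5 itself varied 1.27-fold, less than any of the names it was compared with.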

How the data were processed

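Lumbar spinal cord polyA RNA was sequenced by the authors as 53 bp reads in 4 libraries, 1 per condition, grouped by their labels. The submitters' processing notes name STAR and GRCm38 (mm10), and the methods add counting with HTSeq on Ensembl genes. The deposited table lists RefSeq transcripts, and the step that leads to its values is not given in the sources used here. The values deposited by the authors were taken as RPKM, a unit inferred because the total of value times length was nearly equal in the 4 libraries. A further 3 deposited columns are ratios, the authors' own comparisons, and were not used.

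Rows of a name were averaged. A name was called at a ratio of at least 1.5-fold without a pseudocount, and log2 differences used a pseudocount of 0.1 RPKM. The ranks of a gene among the 12987 names also used the ratio without a pseudocount. Transcript lengths and positions came from GENCODE M21 on GRCm38, and depth was estimated from the step of low values, so no confidence interval was derived. Promoter windows came from RefSeq GRCm38.p6. The alternatives were median-ratio scaling, a pseudocount of 1, a mean of at least 1 RPKM, a 2-fold threshold, and the row with the highest mean or the sum of rows in place of their mean. The genes, gene lists and alternatives were chosen with earlier results of these data known. Scaling of the order of genotypes and of list counts, and list counts without low genes (mean under 1 RPKM), were chosen after seeing the data, as extra settings. The genes named are the 8, at most 6 genes of each list with a mean of at least 1 RPKM and past 1.5-fold in any comparison, largest first, and the 5 profiles nearest to Fkbp5. Named outside this rule, after their values were seen, were Fam107a, Crhr1, Nefh, Snap25, the list genes under 1 RPKM and the 5 profiles nearest to Sgk1. So were the 6 clock genes with both G93A libraries below both WT libraries. Scripts in Python 3.11.15 with pandas 2.3.3, numpy 2.4.6 and, for plots, matplotlib 3.10.9 were tested on simulated data.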

Additional observations from a re-analysis of the deposited data

Results flagged for a closer look

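For 5 of the 8 genes the SD difference had opposite signs in the WT and the G93A pair, as it had for 45.8% of the names with a mean of at least 1 RPKM. Several of these differences were close to 0, at -0.03 for Klf9 in WT and at 0.06 for Sgk1 and 0.07 for Pdk4 in G93A. With 1 library per condition these differences between genotypes were not tested. The log2 SD difference in G93A minus that in WT was 1.04 for Sgk1, 0.80 for Sult1a1, 0.34 for Pdk4, 0.29 for Klf9 and -0.22 for Tsc22d3. Sgk1 was lower with SD in WT at -0.98 and nearly level in G93A, and Sult1a1 was at -0.26 in WT and 0.54 in G93A. For Nr3c1, and also for Klf9, the difference between genotypes turned sign, below 0 under vehicle and above 0 under SD, but for Klf9 the SD pair came to -0.02 under median-ratio scaling and the sign did not turn. For Nr3c1 the SD difference was above 0 in both genotypes, and that in G93A minus that in WT was 0.12.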

How the results depend on the processing

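With 1 library per condition the values show how 4 libraries differ, not how conditions differ. The depth is an estimate, Sult1a1 and Zbtb16 rest on the fewest reads, and the unit was inferred.

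At a 2-fold threshold the count of the 8 genes past it was 1 in G93A vehicle against WT vehicle, 0 with SD in WT and 0 with SD in G93A. With a pseudocount of 1 the count with SD in G93A was 0. Of 128 single values under the alternatives, 124 kept their call, made on the ratio of levels with no pseudocount unless one is named. The settings on rows could change only Sgk1 and Tsc22d3, so for genes with 1 row the call was fixed in advance. Under median-ratio scaling 30 of 32 values kept their call, and with a pseudocount of 1 also 30 of 32. The sign turned in 2 of the 128 values, both under median-ratio scaling and both near 0. These were -0.01 for Fkbp5 in the vehicle pair and -0.02 for Klf9 in the SD pair. Zbtb16 lost its call in 3, in the vehicle pair under median-ratio scaling (log2 difference 0.51) and with a pseudocount of 1 (0.42), and with SD in G93A with a pseudocount of 1 (0.49). Its log2 difference in the vehicle pair was 0.57 as reported, under the line although its ratio was past it. Tsc22d3 gained a call in 1, at -0.62 in the SD pair under median-ratio scaling. That scaling moved the median of all names by at most -0.05. No paired analysis was possible because each condition has 1 library and the labels give no replicate numbers.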

Other observations

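Because Sgk1 had the widest range of the 8 genes, the profiles nearest to it were also looked up, a choice made after its values were seen. Among the same 2198 names they were H2-K1, Ptrf, Alox5ap, Dhrs3 and Apbb1ip, at distances of 0.29, 0.38, 0.43, 0.48 and 0.53. H2-K1, a class I histocompatibility gene with near-identical relatives whose reads may be split, was at 17.0 RPKM with vehicle and 8.16 with SD in WT, and 40.7 and 44.8 in G93A. Ptrf, a coat protein of caveolae, was at 6.70, 4.42, 13.1 and 14.6 RPKM in the same order, and Alox5ap, which enables leukotriene synthesis, was at 4.12, 3.02, 8.93 and 10.5 RPKM. In all 5 the WT + SD library was the lowest and both G93A libraries were above both WT libraries.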
